A study of Homo sapiens with 6 samples.

Results

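The EGF receptor family was examined as 10 genes: the receptors EGFR, ERBB2 and ERBB3, the ligands AREG, EREG, HBEGF, TGFA, EPGN and BTC, and ERRFI1, which encodes a cytoplasmic inhibitor of the receptors. The genes were found by exact symbol among the 26822 named genes of the processed RNA-seq table, and where a symbol had several rows the row with the highest mean level was kept. All 10 had a row. The cells were MCF10A, an established, non-tumorigenic line of human breast epithelial cells. They were transfected for 72 hours with 30 nM of non-targeting siRNAs (siNT, 3 samples) or of siRNAs against PAX9 (siPAX9, 3 samples), PAX9 being a paired-box transcription factor. Both groups grew in medium with horse serum, hydrocortisone, cholera toxin, insulin and 20 ng/mL of epidermal growth factor (EGF), so the receptor was supplied with ligand from the medium in siNT and in siPAX9 alike. Levels are given in FPKM, a count of fragments scaled to transcript length and to the number of mapped fragments, a scale on which genes of different length can be set side by side. Each FPKM is the authors' value for a group, with its 3 samples combined. No value per sample was analysed here, so no difference could be compared with the spread between replicates, no test was run, and the table does not give the reads behind a value. In bulk RNA, fewer cells that express a gene and less of its RNA per cell cannot be told apart.

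The EGF receptor family consists of receptor tyrosine kinases that pair with each other when a ligand binds. EGFR has many ligands, ERBB3 has a weak kinase and binds neuregulins, and ERBB2 has no known ligand of its own and serves as a partner for the others. The ligands are made as membrane-anchored precursors that proteases of the ADAM family release from the cell surface. AREG (amphiregulin), TGFA (transforming growth factor alpha) and EPGN (epigen) act mainly through EGFR, while EREG (epiregulin), HBEGF (heparin-binding EGF-like growth factor) and BTC (betacellulin) can also activate ERBB4. In breast epithelium these ligands act on the cells that make them and on their neighbours, and MCF10A cells are known to depend on EGF for growth.

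The genes for EPGN, EREG, AREG and BTC lie next to each other on chromosome 4. The 250 bases before the RefSeq start of EPGN, EREG and AREG are shown because these neighbours differed in direction between siPAX9 and siNT. They are written 5′ to 3′ on the plus strand, with coordinates on GRCh38.p14 (chr4:74308220-74308469 for EPGN, chr4:74364895-74365144 for EREG and chr4:74444886-74445135 for AREG). Capitals mark TATAAA, the core of a TATA box, and TGACGTCA, the full cAMP response element.
EPGN: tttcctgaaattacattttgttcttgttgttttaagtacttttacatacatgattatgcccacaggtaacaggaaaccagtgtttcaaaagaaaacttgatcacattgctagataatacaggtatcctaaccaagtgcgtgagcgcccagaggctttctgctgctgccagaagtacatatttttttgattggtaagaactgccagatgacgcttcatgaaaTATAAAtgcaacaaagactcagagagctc
EREG: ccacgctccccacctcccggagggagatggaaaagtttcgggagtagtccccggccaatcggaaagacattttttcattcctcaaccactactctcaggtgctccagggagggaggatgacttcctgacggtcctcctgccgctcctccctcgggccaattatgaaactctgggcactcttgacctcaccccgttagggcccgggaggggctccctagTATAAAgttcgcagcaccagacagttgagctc
AREG: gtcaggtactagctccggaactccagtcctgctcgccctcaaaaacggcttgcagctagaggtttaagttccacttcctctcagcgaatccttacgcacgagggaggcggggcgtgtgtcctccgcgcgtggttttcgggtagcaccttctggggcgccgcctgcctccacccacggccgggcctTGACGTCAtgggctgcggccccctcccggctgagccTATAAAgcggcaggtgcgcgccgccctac

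TATAAA was found in each of the 3 sequences. On the plus strand it began 29 bases before the start in EPGN, 32 bases before it in EREG and 29 bases before it in AREG. It was also found in a window of EGFR, so in 4 of the 11 windows of the members, and on either strand in 10.7% of the 35116 RefSeq windows of the same length. TGACGTCA was found in AREG, from 65 to 58 bases before the start, and in no other window of a member, against 1.65% of all windows. The windows also differed in base composition, with 38.0% G and C in EPGN, 58.0% in EREG and 65.2% in AREG. RefSeq windows were matched by symbol for 9 of the 10 members (all but ERBB3), 11 windows in all. The AP-1 sequence TGACTCA was found for EGFR alone among them, against 4.20% of all windows. Of the PAX9 sequences that the study scanned for, only GCGGAACGG is given here. It was in none of the 11 windows and in 0.188% of all windows. No motif here contains another, and a match or its absence describes these letters in these windows and nothing about the factor.

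PAX9, the targeted gene (chr14:37126773-37642998 on hg19), stood at 2.80 FPKM in siNT and at 0.325 FPKM in siPAX9, which is 8.60-fold lower. Its locus also overlaps 7 other annotated genes, among them SLC25A21 on the other strand and SLC25A21-AS1 on its own strand. Of all named genes, 13622 reached 1 FPKM in the group where they were higher, and their median log2 change of FPKM from siNT to siPAX9 was -0.07, with 54.8% below 0 and 45.2% above. Shares and medians of named genes given below, and the place of a gene among them, refer to these 13622. Mammary epithelial markers were abundant, led by KRT17 (1718 in siNT and 2088 in siPAX9), KRT5 (1558 and 1807) and KRT6A (368 and 959). Of the luminal keratins, KRT8 (51.7 and 58.7) and KRT18 (212 and 119) were present and KRT19 was near 0 (0.0258 and 0.103). KRT8 and KRT18 are listed at the same locus (chr12:53290971-53346685), and whether reads were shared between them was not tested. The epithelial adhesion genes differed in direction, with CDH1 (E-cadherin) at 45.3 and 124 and EPCAM at 34.3 and 16.7. Of 12 stromal, endothelial and leukocyte markers, 9 were under 1 FPKM in each group, and CD3E and COL3A1 were listed at 0. The summed FPKM of these 12 genes was 17.6 in siNT and 61.4 in siPAX9. CD14, a surface receptor known from monocytes, made up most of it (14.4 and 56.5). COL1A1, a collagen of fibroblasts, was higher in siPAX9 (0.454 and 4.13), and the endothelial PECAM1 was lower (2.58 and 0.495). Their part in the differences below was not tested.

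EREG and ERBB3 were at least 2-fold higher in siPAX9, and none of the 10 members was at least 2-fold lower. Over the 13622 named genes that reached 1 FPKM, 7.75% were at least 2-fold higher and 7.22% at least 2-fold lower. AREG, the ligand with the highest level in siNT, was 1.78-fold lower in siPAX9, while EPGN and ERRFI1 were 1.88-fold and 1.70-fold higher. EGFR, ERBB2, HBEGF and TGFA differed by no more than 1.11-fold in either direction. At a threshold of 1.5-fold, 5 of the 10 members were higher (ERBB3, EREG, EPGN, BTC and ERRFI1) and 1 was lower (AREG), beside 14.8% and 17.0% of all named genes. BTC reached 1 FPKM through siPAX9 alone, the group in which it was higher. The median log2 change of the 10 members was 0.41. Adding 1 to every FPKM gave a median of 0.24, and a minimum of 5 FPKM, which leaves out BTC, gave 0.13. The members share no common direction, with 7 above 0 and 3 below, beside 45.2% above and 54.8% below over all named genes.

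**Figure D1:**
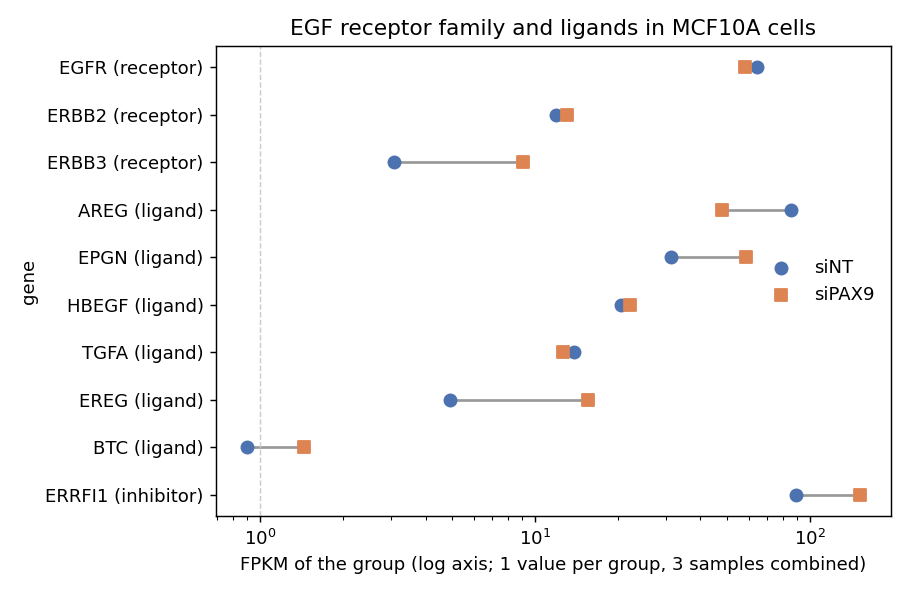
Level of each of the 10 genes in siNT (circles) and siPAX9 (squares), in FPKM on a log axis, with 1 value per group and no error. The pairs that lie farthest apart are EREG (4.89 and 15.6) and ERBB3 (3.06 and 9.05), AREG is the ligand with the squares clearly to the left of the circles, and the dashed line marks 1 FPKM.

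Of the receptors, EGFR (chr7:55086725-55279759 on hg19, plus strand) had the highest level. It stood at 64.3 FPKM in siNT and at 58.1 FPKM in siPAX9, a log2 change of -0.14. In siNT and in siPAX9 its level lay above that of 90.7% of the 13622 named genes. ERBB2 (chr17:37844337-37886846, plus strand), the partner receptor, stood at 11.9 FPKM in siNT and at 13.1 FPKM in siPAX9, a log2 change of 0.13. The ERBB2 locus of the table also overlaps PGAP3 and MIEN1 on the other strand, and the EGFR locus overlaps EGFR-AS1. The ERBB3 locus, described next, overlaps the annotated ENSG00000257411 on its own strand, and the TGFA locus overlaps TGFA-IT1 on its own strand.

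ERBB3 (chr12:56473809-56497291, plus strand), the neuregulin receptor with the weak kinase, stood at 3.06 FPKM in siNT and at 9.05 FPKM in siPAX9. That is a 2.96-fold higher level, with a log2 change of 1.57, which exceeded the change of 95.6% of all named genes. Its level lay above 19.0% of named genes in siNT and above 45.9% in siPAX9. The order of the 3 receptors was the same in the groups, EGFR before ERBB2 before ERBB3. The distances between them were smaller in siPAX9, as EGFR stood 21.0-fold above ERBB3 in siNT and 6.42-fold above it in siPAX9, and ERBB2 stood 3.90-fold and 1.44-fold above it. The summed FPKM of the 3 receptors was 79.3 in siNT and 80.3 in siPAX9.

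The fourth receptor, ERBB4, was listed at 0 in siNT and at 0.0158 FPKM in siPAX9. EGF itself was at 0.0145 and 0.0561 FPKM, so the gene for the ligand that the medium supplied was close to 0 in these cells. Of the neuregulins, NRG1 (0.182 and 0.297) and NRG3 (listed at 0 in each group) were under 1 FPKM. NRG2 stood at 2.36 FPKM in siNT and at 1.58 FPKM in siPAX9. NRG4, known as a ligand of ERBB4, had 3.75 and 5.44. Thus 2 of these 6 remaining family genes reached 1 FPKM, and neither differed 2-fold.

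Among the ligands, EREG (chr4:75230860-75254477, plus strand) stood at 4.89 FPKM in siNT and at 15.6 FPKM in siPAX9. Its log2 change of 1.68, a 3.20-fold higher level, was larger than that of 96.0% of all named genes, and its level lay above 28.2% of named genes in siNT and 63.6% in siPAX9. EPGN (chr4:75174093-75189481, plus strand) stood at 31.2 FPKM in siNT and at 58.7 FPKM in siPAX9. Its log2 change was 0.91, short of 2-fold. In siPAX9 EPGN had the highest FPKM of the 6 ligands, ahead of the kept AREG row at 48.0.

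BTC (chr4:75669970-75719896, minus strand) had the lowest level of the 10 genes, 0.896 FPKM in siNT and 1.44 in siPAX9. Its log2 change was 0.68, and 0.36 with 1 added to each FPKM. HBEGF (chr5:139712424-139726188, minus strand), also known as the receptor for diphtheria toxin, had 20.6 in siNT and 22.2 in siPAX9. TGFA (chr2:70674412-70781147, minus strand) had 13.9 and 12.6. The log2 changes were 0.11 for HBEGF and -0.14 for TGFA, inside the middle 50% of all named genes, which ran from -0.41 to 0.30.

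AREG has 2 rows in the table, because hg19 carries a near-identical copy of the gene (AREGB in the GENCODE annotation). The kept row (chr4:75310815-75320726, plus strand) stood at 85.2 FPKM in siNT and at 48.0 FPKM in siPAX9, a log2 change of -0.83. The row at the copy (chr4:75480591-75490485, plus strand) had 74.8 in siNT and 43.7 in siPAX9, a log2 change of -0.78. The annotated transcripts of AREG and of the copy are identical at 1233 of 1234 aligned bases, so most reads cannot be told apart between them and the level of each row is uncertain. RefSeq on GRCh38.p14 lists 1 AREG gene, with AREGB as its synonym. Summed over the rows, AREG had 160.1 FPKM in siNT and 91.7 in siPAX9, a log2 change of -0.80. The direction and the size of the difference were nearly the same for either row and for their sum, and the absolute level was not. As most reads fit either row, this agreement is not an independent check of the difference.

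The 4 ligand genes lie within 546 kb on chromosome 4 (75174093 to 75719896 on hg19), and the table has 5 rows in this span, none without a symbol. Along the chromosome, EPGN (log2 change 0.91) is followed by EREG (1.68), AREG (-0.83), the AREG copy (-0.78) and BTC (0.68). Neighbours in the cluster thus differed in direction. EREG and AREG are transcribed from the same strand, and their loci begin 80.0 kb apart. The FPKM of the kept AREG row was 17.4 times that of EREG in siNT and 3.07 times in siPAX9, and both AREG rows together were 32.8 and 5.86 times. The gene before the cluster, MTHFD2L, a mitochondrial folate enzyme, had 17.9 in siNT and 11.5 in siPAX9, a log2 change of -0.64. The row after it, LOC100507388, was listed at 0 and 0.0150.

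**Figure D2:**
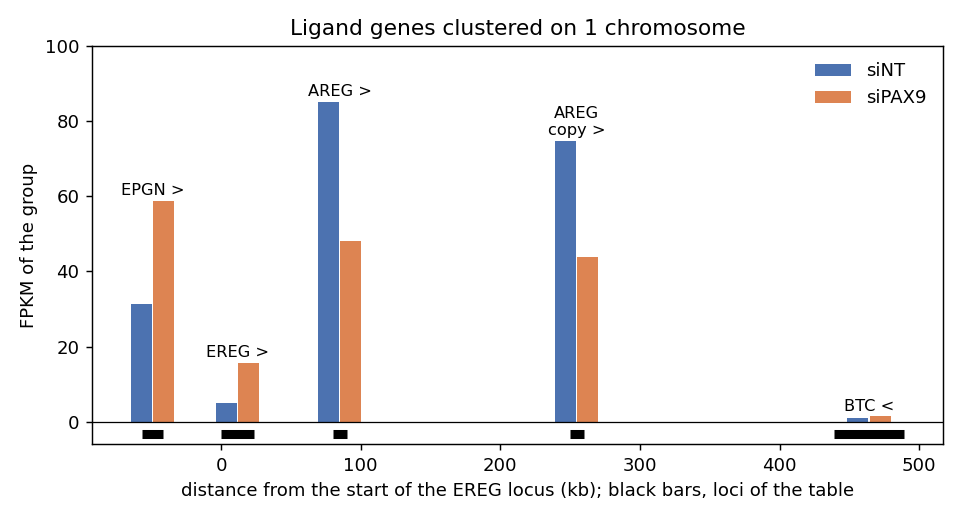
FPKM in siNT (blue) and siPAX9 (orange) of the 5 rows in the ligand cluster, placed by distance in kb from the start of the EREG locus, with arrows for the strand and black bars for the extent of each locus. EPGN and EREG are higher in siPAX9, AREG and its copy are lower, and BTC is close to the axis in each group.

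The summed FPKM of the 6 ligands was 157 in siNT and 159 in siPAX9, a log2 change of 0.02, while the contribution of each ligand differed. AREG made up 54.4% of the sum in siNT and 30.3% in siPAX9. EPGN made up 19.9% and 37.0%, and EREG 3.12% and 9.87%. HBEGF made up 13.1% and 14.0% and TGFA 8.87% and 7.96%. BTC stayed the smallest, at 0.572% and 0.906%. With both AREG rows counted, the summed FPKM was 232 in siNT and 202 in siPAX9, and AREG made up 69.1% and 45.3%. AREG then remained the ligand with the highest level in siPAX9, ahead of EPGN at 29.0%, so which ligand came first in siPAX9 depended on how the copy was treated.

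**Figure D3:**
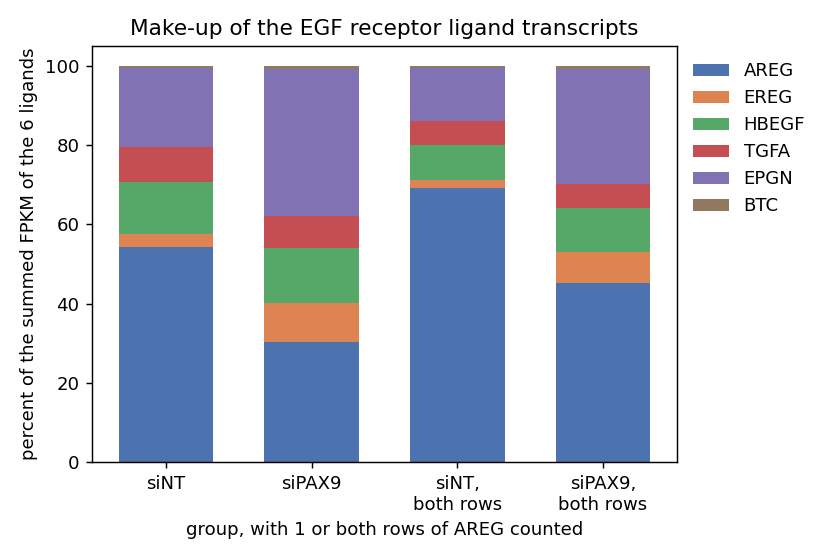
Share of each ligand in the summed FPKM of the 6 ligands, as percent, for siNT and siPAX9 with the kept AREG row (left pair) and with both AREG rows counted (right pair). The AREG share is smaller in siPAX9 in either pair (54.4% and 30.3%, or 69.1% and 45.3%), and the EPGN and EREG shares are larger.

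ERRFI1 (chr1:8071779-8086393, minus strand), also called MIG6, binds the kinase domain of activated EGFR and blocks it. It stood at 89.3 FPKM in siNT and at 152 FPKM in siPAX9, the highest of the 10 genes in siPAX9. In siNT it was above the kept AREG row (85.2) and below both AREG rows together (160.1). Its log2 change was 0.77, and its level lay above 93.5% of named genes in siNT and 97.0% in siPAX9. Transcription of ERRFI1 is known to be induced by EGFR signaling itself, which makes it a feedback inhibitor.

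The genes around the family were taken from 9 lists, 98 genes in all, of which 91 reached 1 FPKM. Of these, 2 were at least 2-fold higher and 5 at least 2-fold lower, beside 7.75% and 7.22% of all named genes, and their median log2 change was -0.08. Of the 2 higher genes, GAB2 reached 1 FPKM through siPAX9 alone, and 1 gene was higher with 1 added to each FPKM or with a minimum of 5. None was at least 4-fold higher and 2 were at least 4-fold lower, beside 3.20% and 1.75% of all named genes. The 5 lower genes came from the feedback inhibitors and the ERK-responsive genes. All 15 feedback inhibitors reached 1 FPKM. The level of 13 of them was lower in siPAX9, 9 by at least 1.5-fold and 3 by at least 2-fold, and their median log2 change was -0.67. Over all named genes, 54.8% were lower, 17.0% by at least 1.5-fold and 7.22% by at least 2-fold, and the median was -0.07.

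SOCS3, an inhibitor of cytokine receptor signaling, stood at 21.0 FPKM in siNT and at 3.32 FPKM in siPAX9, a 6.32-fold lower level. LRIG1, a membrane protein that promotes degradation of the EGF receptor family, had 11.7 in siNT and 2.59 in siPAX9, 4.50-fold lower. SPRY4, a Sprouty inhibitor of the pathway from RAS to ERK, had 13.1 and 4.75, 2.77-fold lower, at a row that also carries the symbol SPRY4-IT1. DUSP6, a phosphatase that inactivates ERK, came close to 2-fold, with 59.2 in siNT and 30.2 in siPAX9 and a log2 change of -0.97. ERRFI1 thus differed in direction from most of the inhibitors on this list. SOCS4 (10.5 and 13.5) and SOCS5 (7.75 and 11.5) were the members of the list with higher FPKM in siPAX9. The locus of LRIG1 overlaps SLC25A26 on the other strand, and whether the authors' counting used strand is not given in the sources used here.

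Of the 15 ERK-responsive genes, 12 reached 1 FPKM, 10 of them lower in siPAX9 and 2 higher, beside 54.8% lower and 45.2% higher over all named genes. The median log2 change was -0.47. At least 2-fold lower were ETV4 (10.6 in siNT and 3.45 in siPAX9) and ETV5 (11.1 and 4.76), ETS transcription factors of the same subfamily. Their loci overlap annotated genes, DHX8 for ETV4 and DGKG for ETV5. EGR1, an immediate-early zinc finger factor, had 93.8 in siNT and 47.5 in siPAX9, a log2 change of -0.98. The higher genes were CCND1, which encodes cyclin D1 (28.1 and 51.1), and JUN, a subunit of AP-1 (12.4 and 21.8). FOS, its partner, had 60.6 in siNT and 34.3 in siPAX9.

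None of the 13 genes of the RAS-RAF-MEK-ERK cascade, the 12 of the PI3K-AKT branch, the 6 of the SRC and JAK-STAT branch or the 11 of receptor endocytosis and ubiquitination differed 2-fold, beside 7.75% higher and 7.22% lower over all named genes. The median log2 changes were 0.00, -0.09, -0.11 and 0.04. At 1.5-fold, 1 gene of the cascade and 2 of the PI3K-AKT branch were lower, and 1 gene each of the SRC and JAK-STAT branch and of endocytosis was higher, beside 17.0% lower and 14.8% higher over all named genes. Among the 10 receptor adaptors, GAB2, a docking protein for PI3K and SHP2, had 0.297 in siNT and 1.19 in siPAX9. The GAB2 locus overlaps 5 other annotated genes. The median log2 change of the adaptors was 0.29, and 8 of the 10 were higher in siPAX9, beside 45.2% of all named genes.

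Of the 10 genes of ligand shedding and processing, TIMP3 alone was at least 2-fold higher, beside 7.75% of all named genes. TIMP3, an inhibitor of the ADAM proteases, stood at 14.7 FPKM in siNT and at 46.4 FPKM in siPAX9, a 3.15-fold higher level. The TIMP3 locus overlaps SYN3 on the other strand, and ENSG00000228194 and ENSG00000229673 on its own strand. ADAM17, the main sheddase of AREG, EREG, HBEGF and TGFA, had 14.0 and 14.3. ADAM10, known to release BTC and EGF, had 31.7 and 36.4. RHBDF2, a rhomboid-like protein that guides ADAM17 to the cell surface, had 16.6 and 9.81, 1.69-fold lower. The median log2 change of the list was 0.05.

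**Figure D4:**
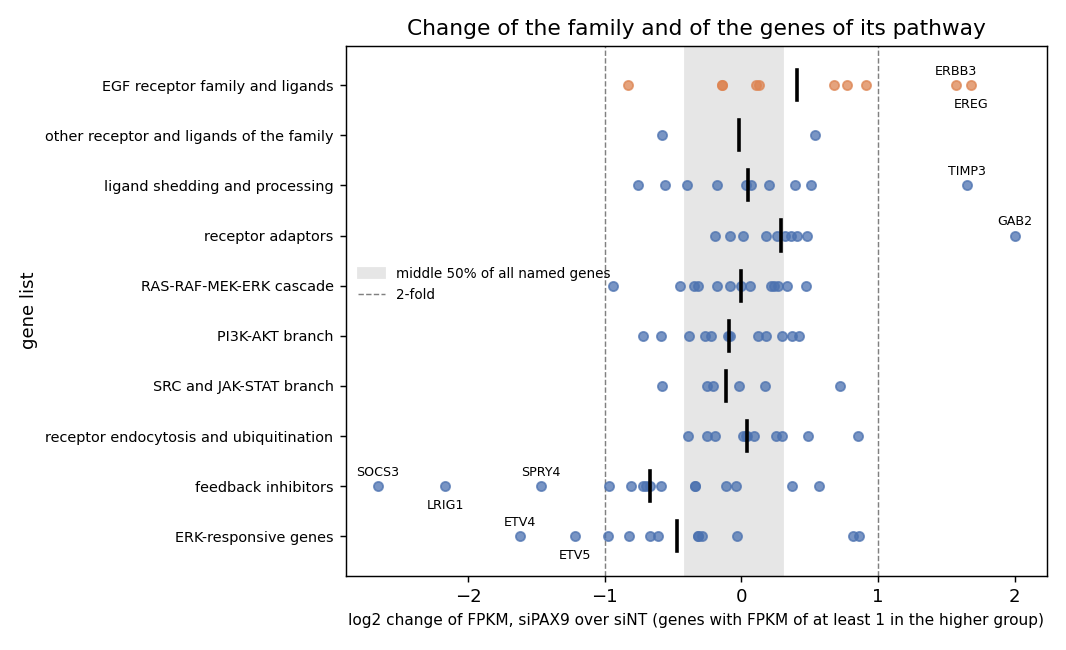
Log2 change of FPKM from siNT to siPAX9 for the 10 family genes (orange) and for the genes of the 9 lists around them (blue) that reached 1 FPKM, with black lines for the list medians, dashed lines at 2-fold and grey for the middle 50% of all named genes. The feedback inhibitors and the ERK-responsive genes have the lowest medians (-0.67 and -0.47), and the genes past 2-fold are named.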

How the data were processed

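RNA-seq was performed on 6 samples of MCF10A cells, 3 with siNT and 3 with siPAX9. The authors read poly(A)+ RNA from one end. In Partek Flow, they used Bowtie 2 for alignment on hg19 and Cufflinks for quantification. The deposited table holds 1 FPKM per locus and group, as the authors combined the samples. Normalization between libraries and the handling of reads that map equally well to several places are not given in the sources used here. Bowtie 2 does not by itself split reads across introns. The table also holds the authors' own log2 fold changes, test statistics, p-values, q-values and a verdict per locus, none of which were used.

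Levels and log2 changes were computed from the 2 FPKM columns with Python 3.11.15, numpy 2.4.6 and pandas 2.3.3, and figures were drawn with matplotlib 3.10.9. No pseudocount was added. A gene counted as higher or lower at a 2-fold difference when its larger FPKM was no less than 1. The calling steps were tested on simulated data. Starts of loci were raised by 1, because the table's start plus 1 equalled a transcript start in GENCODE release 44 on GRCh37 at 6918 of 20696 single-symbol loci, and the start itself at 703. AREG transcripts were aligned with Biopython 1.88.

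The 10 members and the gene lists were chosen with earlier results of these data known. Named were the members, the genes past 2-fold in each pathway list, the remaining family genes, the rows of the ligand cluster, and leading or absent markers. TATAAA was searched, and DUSP6, SOCS4, SOCS5, EGR1, CCND1, JUN, FOS, ADAM10, ADAM17, RHBDF2, KRT8, KRT18, KRT19, CDH1, EPCAM and the genes flanking the cluster were named, after values were seen.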

Additional observations from a re-analysis of the deposited data

How the results depend on the processing

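No replicate could be left out, since each group has 1 combined FPKM, and the table does not give the reads behind each FPKM. No paired analysis was possible because the table holds no value per sample. The other settings were 1 added to each FPKM, no minimum FPKM, a minimum of 5, centring on the median of all named genes, FPKM summed over the rows of a symbol, and rows with 1 symbol. A minimum FPKM cannot alter the log2 change of a single gene, rows with 1 symbol altered 0 of the 10 members, and summed rows altered AREG alone. Centring moved all 10 by the same amount, and 1 added to each FPKM altered 8. None of the 10 changed its sign or its side of 2-fold. The 2 members called higher stayed 2 in number and the members called lower stayed 0. At 1.5-fold, 5 members were higher and 1 was lower, and at 4-fold 0 were higher. The median log2 change of the members was 0.24 with 1 added to each FPKM, 0.13 with a minimum FPKM of 5, which leaves out BTC, and 0.47 after centring. Of the pathway lists, 1 gene was at least 2-fold higher with 1 added to each FPKM and 1 with a minimum of 5, 4 with no minimum, 6 at 1.5-fold and 0 at 4-fold. At least 1.5-fold lower were 19 genes, and 2 at 4-fold. The shares of all named genes were 14.8% higher and 17.0% lower at 1.5-fold, and 3.20% and 1.75% at 4-fold. The 5 genes at least 2-fold lower became 4 with rows of 1 symbol, as SPRY4 shares its row.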
